A study of Arabidopsis thaliana with 12 samples.

Results

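The transcripts described here carried an N6-methyladenosine (m6A) peak in the 3' UTR whose strength differed between wild-type and dcl1 Arabidopsis thaliana, and were expressed at a moderate level. A peak was included if it was annotated to the 3' UTR in the deposited table of differential peaks, overlapped exactly 1 gene of the expression table, and if that gene, called its host, averaged from 5 up to, but not including, 20 FPKM in wild type (FPKM are fragments scaled to transcript length and library size). This gave 1100 peaks in 1096 hosts, out of 3117 differential peaks in all (35.3%) and out of 2389 differential 3' UTR peaks over a single gene. Of those 2389 peaks, 424 had a host under 5 FPKM and 865 a host of at least 20 FPKM. Wild-type expression and the presence of a peak change therefore chose the peaks, and neither is a finding below.

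m6A is a methyl mark on adenosines inside messenger RNA. In plants a writer complex that includes MTA, MTB, FIP37, VIR and HAKAI places it, mostly near stop codons and in 3' UTRs, ALKBH enzymes remove it, and YTH-domain ECT proteins bind it; the mark is known to affect how long a transcript lasts. DCL1 is the Dicer-like enzyme that cuts microRNAs from their precursors, and a microRNA guides ARGONAUTE1 to cut or silence target transcripts, so targets tend to be more abundant when DCL1 is impaired.

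Both groups were Col-0 plants grown in long days without further treatment and sampled at 20 days, labelled as leaf although the protocol speaks of seedlings. One group was wild type and the other a dcl1 mutant whose allele the labels do not name. Each had 3 input RNA-seq libraries and 3 libraries of RNA immunoprecipitated with an m6A antibody, 12 in all. The mutation is present in the whole plant and the RNA came from mixed cells, so fewer cells of a type and less RNA per cell cannot be told apart.

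DCL1 stood at 5.08, 4.53 and 6.0 FPKM in wild-type replicates 1, 2 and 3 and at 0.604, 0.406 and 0.632 FPKM in dcl1. The 4 leaf markers summed to between 33460 and 38260 FPKM in every library, the 4 root markers to between 8.50 and 12.3, and the 2 seed markers listed to at most 0.547. The 2 floral organ markers, AG and AP3, summed to 2.20 to 3.31 FPKM in wild type and 4.28 to 6.53 in dcl1; their part in the results was not tested. Wild-type replicate 3 (-26.1 on the first principal component of all tested genes) lay nearer to dcl1 (28.9 to 44.1) than replicates 1 (-41.1) and 2 (-42.8). The FPKM of a library summed to between 616106 and 622995 and give no sequencing depth, which is unknown. The labels do not say whether replicates were separate plants, though the series design calls them biological.

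Peaks gained and lost in dcl1 were equally common among moderately expressed transcripts. Of the 1100 peaks, 552 were stronger in dcl1 (50.2%) and 548 weaker, by the authors' log2 change in the deposited table, from which all peak values here are taken. The changes were small: the median gain was 0.30 and the median loss -0.28 on the log2 scale. Because only peaks that passed the authors' test are listed (largest p 0.049), none lay between -0.0921 and 0.092. A change of at least 2-fold was listed for 9 gains and 22 losses, and 863 peaks (78.5%) had an FDR under 0.05, of which 430 were gained and 433 lost.

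Listed changes were larger in hosts of lower expression. Only peaks that passed the authors' test are listed, and wild-type FPKM chose the groups. Whether that filter gave this order was not tested. An FDR under 0.05 was listed for 57.3% of peaks in hosts under 5 FPKM, 78.5% here and 93.8% at 20 FPKM or more. The median size of the change was 0.49 on the log2 scale for the 424 peaks with hosts under 5 FPKM, 0.28 for the 1100 peaks described and 0.21 for the 865 peaks with hosts of at least 20 FPKM. Within the 5 to 20 FPKM range the same quantity went from 0.36 in the 280 peaks whose hosts lay below 7.5 FPKM to 0.23 in the 100 peaks whose hosts lay at 17.5 FPKM or above. The share of gains was 50.9% in the weakly expressed hosts and 76.5% in the highly expressed ones. Inside the range it was 42.5% below 7.5 FPKM and between 50.7% and 56.6% in the other 5 steps. These shares were not tested against each other, since peaks are not replicates.

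**Figure D1:**
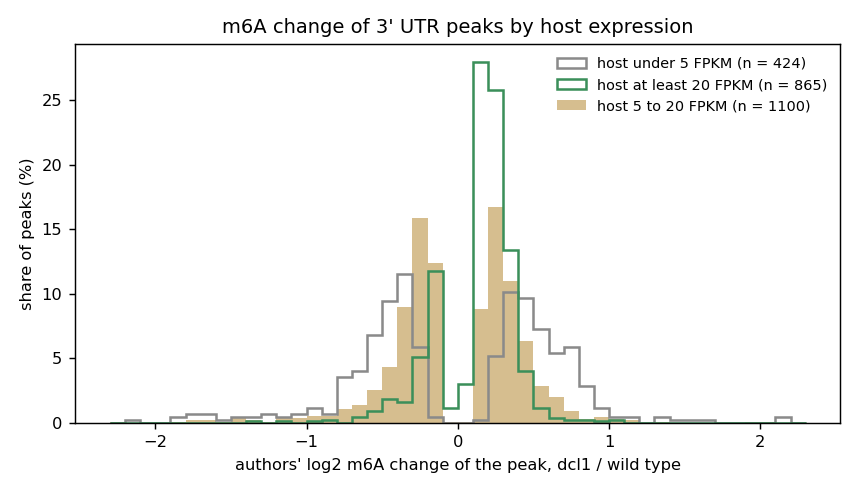
Distribution of the authors' log2 m6A change (x axis, dcl1 over wild type) as a share of peaks (y axis, %), for 3' UTR peaks with hosts of 5 to 20 FPKM (filled), under 5 FPKM (grey line) and at least 20 FPKM (green line); 3 peaks of the weak group lie beyond the axis. The filled distribution has 552 gains and 548 losses around an empty centre, whereas 76.5% of the green one lies above 0.

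At the lower limit, the hosts just inside were AT5G01170 at 5.0045 FPKM (peak log2 change -0.606) and CSLD3 at 5.0151 FPKM (-0.704). Just outside it stood ABCC4 at 4.9808 FPKM (0.417) and AT4G21720 at 4.9929 FPKM (-0.424). At the upper limit, RPS14 at 19.945 FPKM (0.253) and UCH2 at 19.968 FPKM (0.211) were inside, and SPPA at 20.003 FPKM (0.309) and AT3G45190 at 20.055 FPKM (-0.139) outside.

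The peaks lay at the 3' ends of their hosts, a position largely set in advance by the choice of 3' UTR peaks over a single gene. That choice left out 517 differential 3' UTR peaks over 2 or more genes. The 1100 peaks described had a median length of 420 bases (quartiles 322 and 571, range 62 to 6245 in genomic span, introns included). Of these, 903 (82.1%) ended within 1 base of the annotated end of the host. Another 195 ended before it and 2 beyond it. The peak centre lay a median of 223 bases upstream of the host's end (quartiles 165 and 299). Gained and lost peaks had similar positions, with a median centre at 217 and 237 bases from the end and a median length of 414 and 448 bases. They were spread over the 5 nuclear chromosomes, with a share of gains between 48.1% on chromosome 2 and 53.0% on chromosome 1. Peak sequences were not analysed here.

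Short hosts carried gains more often than long hosts. Among the 220 peaks with the shortest hosts (565 to 1937 bases from gene start to end) 145 were gained (65.9%), and this share went through 54.5%, 48.2% and 43.6% to 38.6% for the longest hosts (3991 to 16562 bases). The median host log2 change was 0.08 for the shortest step, 0.06 to 0.09 for the steps between and 0.02 for the longest. Among peaks whose host changed by less than 0.1 on the log2 scale, 48 of 62 were gained in the shortest hosts (77.4%) and 32 of 94 in the longest (34.0%). The part of host expression in the share of gains by length was not tested. With the same length limits, gains made up 60.0% and 46.7% at the ends of the range in hosts under 5 FPKM, and 86.6% and 63.8% in hosts of at least 20 FPKM. Over the 1100 peaks, Spearman's rho of host length was -0.153 with the peak change and -0.0835 with the host log2 change. Both are given as descriptions, since these peaks share libraries and length also enters the FPKM that bound the group.

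**Figure D2:**
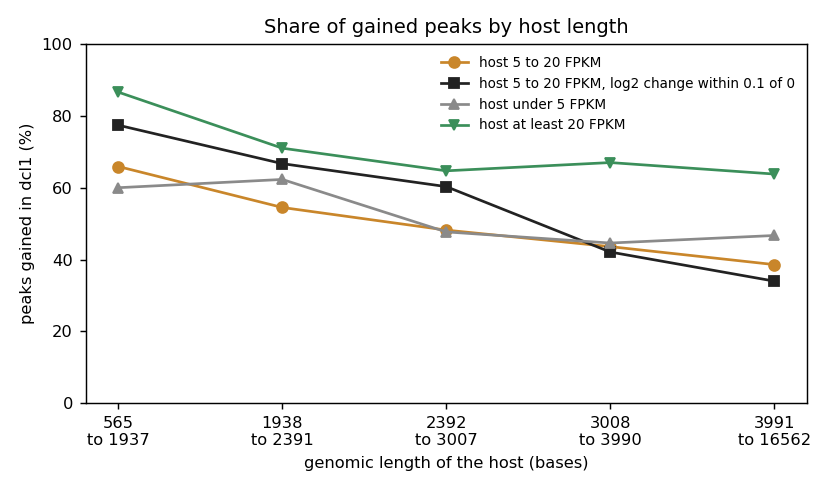
Share of peaks gained in dcl1 (y axis, %) against the genomic length of the host in 5 steps (x axis, bases), each step holding 220 of the peaks with hosts of 5 to 20 FPKM (circles). Squares show those whose host changed by less than 0.1 on the log2 scale, and triangles the weakly and highly expressed hosts; in the squares the share goes from 77.4% to 34.0%.

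The change in host expression was then set beside the change in the peak. Expression was tested with limma on log2(FPKM + 1) over the 17925 genes averaging 1 FPKM or more, at a Benjamini-Hochberg adjusted p-value threshold of 0.05. All 1096 hosts were among the tested genes. In dcl1, 226 hosts rose and 98 fell, which is 20.6% and 8.94% of hosts. Over all tested genes 30.6% passed in either direction. By direction, the background was 17.8% risen and 12.8% fallen over all tested genes, and 17.5% and 10.9% over the 7617 tested genes with a wild-type mean of 5 to 20 FPKM. The median host log2 change was 0.06, against 0.03 over all tested genes. Of the called hosts, 34 rose and 2 fell by at least 1 on the log2(FPKM + 1) scale. Over all tested genes such changes made up 4.18% and 1.22%, and in the same FPKM range 3.26% and 1.18%. The added 1 makes this limit stricter than 2-fold in FPKM. HCAR (described below), for example, fell 2.21-fold in FPKM with a log2 change of -0.98, and is not among the 2. In 551 hosts the values of the genotypes did not overlap (50.3% of hosts), against 48.4% of all tested genes and 46.7% in the range. All 324 called hosts were among the 551, as were 5457 of the 5480 called genes over all tested genes among those without overlap. For a called host, the lack of overlap given below therefore adds no separate evidence.

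The balance of risen and fallen calls depended on scaling, in the hosts and in all tested genes alike. Rises made up 69.8% of host calls with FPKM as deposited and 44.0% after quantile normalization (161 risen and 205 fallen). Over all tested genes the same shares were 58.2% and 40.0%. With any 1 library left out, rises made up 66.8% to 74.1% of host calls, but the number of calls moved. Leaving out wild-type replicate 1 gave 140 risen and 50 fallen hosts, leaving out wild-type replicate 2 gave 129 and 64, and without wild-type replicate 3, which stood nearer to dcl1, 244 and 86; the part of that library in the results was not tested further. Without dcl1 replicate 1 there were 172 and 60, and without dcl1 replicate 3 there were 149 and 67.

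Peaks and hosts mostly moved in opposite directions. Of the 226 peaks in risen hosts, 182 were lost and 44 gained, and of the 98 peaks in fallen hosts, 85 were gained and 13 lost. Thus 267 of 324 peaks in called hosts (82.4%) went against their host, a share that lay between 81.9% and 86.5% under every alternative fit, quantile normalization and each left-out library included. In steps of host change, the share of gained peaks was 92.9% of 28 where the host log2 change lay between -1 and -0.5, 67.2% of 317 between -0.25 and 0, 47.7% of 396 between 0 and 0.25, 25.0% of 160 between 0.25 and 0.5, and 5.88% of 34 at 1 or more. In that last step the median peak change was -0.92. Spearman's rho over the 1100 peaks was -0.475, and -0.307 over the 776 peaks whose host did not pass the threshold. The opposite direction was not particular to this range, with a rho of -0.2925 in hosts under 5 FPKM and -0.4655 in hosts of at least 20 FPKM. Each rho is given as a description, because peaks share the plants and libraries. The labels do not state whether the authors' peak change was taken relative to input; if it was, the input libraries enter both values.

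**Figure D3:**
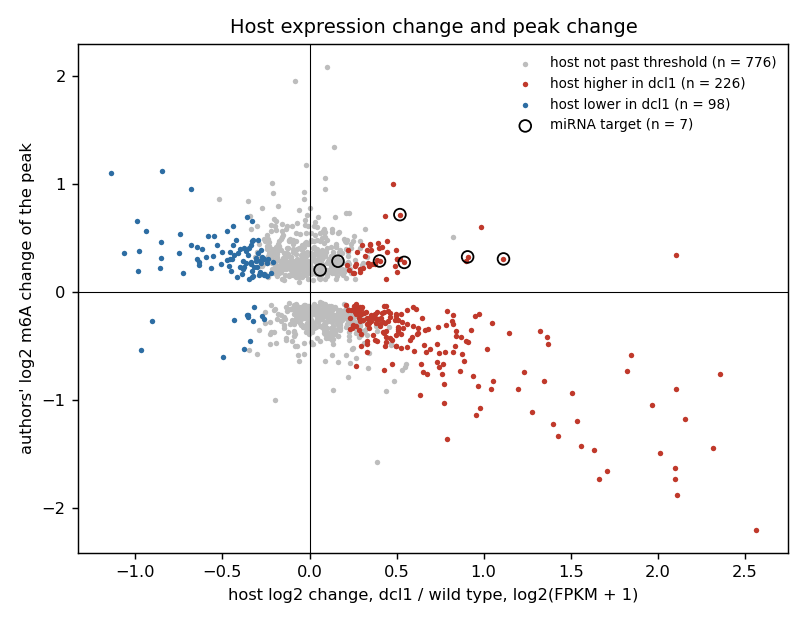
Each point is 1 of the 1100 peaks, placed by the host's log2 change in the input libraries (x axis, dcl1 over wild type, on log2(FPKM + 1)) and by the authors' log2 m6A change of the peak (y axis). Red and blue mark hosts called higher and lower in dcl1 and black rings the 7 microRNA targets; red points lie mostly below 0 (182 of 226), and all 7 rings lie above 0.

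Wild-type replicate 3 was also compared with the others, separately for hosts of lost and of gained peaks. Relative to the mean of wild-type replicates 1 and 2, the median level of the hosts of lost peaks was 0.11 on the log2 scale in wild-type replicate 3 and 0.18 to 0.23 in the dcl1 libraries. For hosts of gained peaks the same medians were 0.05 and -0.03 to -0.02, and for all tested genes 0.08 and 0.05 to 0.07.

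The largest losses of m6A were in hosts that rose strongly. NAC062 (AT3G49530), a NAC transcription factor released from the membrane under stress, stood at 6.75, 8.20 and 10.2 FPKM in wild-type replicates 1, 2 and 3 and at 38.5, 61.0 and 66.3 FPKM in dcl1. All mutant libraries were above all wild-type ones (log2 change 2.57, SE 0.22, limma adjusted p = 3.4e-04), and its 267-base peak on chromosome 3, 18362472 to 18362738 (TAIR10), had a listed log2 change of -2.20 (FDR 1e-136). AT3G62260, a protein phosphatase 2C, stood at 6.94, 5.14 and 4.85 FPKM in wild type and 21.1, 29.3 and 33.1 FPKM in dcl1. Again the genotypes did not overlap (log2 change 2.11, SE 0.18, limma adjusted p = 3.6e-04). The peak of AT3G62260 on chromosome 3, 23038289 to 23038557, changed by -1.88.

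A second protein phosphatase 2C, AT4G33920, stood at 10.8, 11.5 and 13.6 FPKM in wild type and 30.4, 44.0 and 47.6 FPKM in dcl1, and its peak changed by -1.73. AT2G20560, a DNAJ co-chaperone of the heat shock response, stood at 8.75, 5.94 and 3.98 FPKM in wild type and 27.6, 27.3 and 31.7 FPKM in dcl1, with a peak change of -1.73. Neither host had overlapping genotypes, and both rose (log2 1.66, SE 0.17, and 2.10, SE 0.22, limma adjusted p = 7.0e-04 and 8.1e-04). AT3G19240, a Vid27-related protein, stood at 7.29, 6.41 and 7.74 FPKM in wild type and 17.4, 26.6 and 35.9 FPKM in dcl1 (log2 change 1.71, adjusted p = 0.0020 in limma, peak change -1.66). ERD7 (AT2G17840), a dehydration-responsive protein, stood at 11.3, 10.01 and 8.67 FPKM in wild type and at 29.2, 38.0 and 86.1 FPKM in dcl1. Its mutant libraries were all higher but differed widely, with replicate 3 the highest (log2 change 2.10, SE 0.35, limma adjusted p = 0.0050, peak change -1.63).

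Taking the 22 peaks lost at least 2-fold as a group, 20 hosts rose, 0 fell and 2 did not pass, with a median host log2 change of 1.60. The group was chosen by the peak change, so this is a description. It included 3 genes of calcium signalling that were picked out after their values were seen. CPK28 (AT5G66210), a calcium-dependent kinase that restrains immune signalling, went from 12.1 ± 1.28 to 38.3 ± 9.49 FPKM (SD, n = 3 each) with a peak change of -1.43. ACA1 (AT1G27770), a calcium pump, went from 13.1 ± 1.04 to 38.6 ± 14.0 FPKM (peak -1.33). CBL1 (AT4G17615), a calcium sensor, rose by 0.79 on the log2 scale (limma adjusted p = 0.014, peak -1.36), a call that did not hold when wild-type replicate 2 was left out (adjusted p = 0.0545). The 2 hosts that did not pass were SAE1B (AT5G50580, peak -1.57) and the resistance gene AT1G58848 (peak -1.0). Each has a close copy elsewhere in the genome. These copies, AT5G50680 and AT1G59218, stood at 4.71 to 15.2 and 6.43 to 7.73 FPKM over the 6 input libraries. Whether reads were split between copies was not tested, and copies of the 20 risen hosts are not given here.

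Large gains were fewer, and most of their hosts did not pass. Of the 9 peaks gained at least 2-fold, 1 host rose, 2 fell and 6 did not pass, with a median host log2 change of -0.02. AT4G09200, a SPRY-domain protein, had the largest gain (2.08), with 7.37, 7.03 and 8.37 FPKM in wild type and 8.12, 7.63 and 8.83 FPKM in dcl1. SAP130a (AT3G55200), homologous to a subunit of the splicing factor SF3b, followed with 1.95; it stood at 8.33, 8.29 and 8.54 FPKM in wild type and at 8.16, 7.83 and 7.56 FPKM in dcl1. For the former the genotypes overlapped and for the latter they did not, and neither passed the threshold (log2 0.10, SE 0.09, and -0.09, SE 0.07, limma adjusted p = 0.44 and 0.38). Both have close paralogs (AT4G09310 and SAP130b, at 5.93 to 7.68 and 7.74 to 8.61 FPKM over the 6 input libraries). Whether reads were shared between paralogs was not tested, so the peak values of both hosts are uncertain. AT5G50550, a WD40 protein with a gain of 1.34 that missed an FDR of 0.05 (0.11), has such a copy in AT5G50650.

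The gains with a fall of the host were in 4CL3 and AT2G35760. 4CL3 (AT1G65060), a 4-coumarate:CoA ligase that feeds flavonoid synthesis, stood at 7.31, 9.02 and 6.58 FPKM in wild type and 2.73, 3.68 and 2.37 FPKM in dcl1. It fell by 1.14 on the log2 scale (SE 0.15, limma adjusted p = 0.0020), the genotypes did not overlap, and its peak changed by 1.10. AT2G35760, of the uncharacterised UPF0497 membrane family, stood at 13.1, 12.1 and 11.7 FPKM in wild type and 6.58, 6.69 and 5.91 FPKM in dcl1. The groups were clear of each other (log2 -0.85, SE 0.08, limma adjusted p = 5.4e-04) and its peak changed by 1.12. AT3G46020, an RNA-binding RRM protein, and AT5G07590, a WD40 protein, completed the 6 largest gains under an FDR of 0.05 with 1.17 and 1.05; neither host passed (limma adjusted p = 0.88 and 0.43), and both stayed between 4.92 and 10.96 FPKM. The boric acid channel NIP5;1 (AT4G10380), picked out after its values were seen, was the 1 host that rose (7.14 ± 0.72 to 10.4 ± 0.92 FPKM, SD, n = 3 each) with a peak gained 2-fold (1.00).

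**Figure D4:**
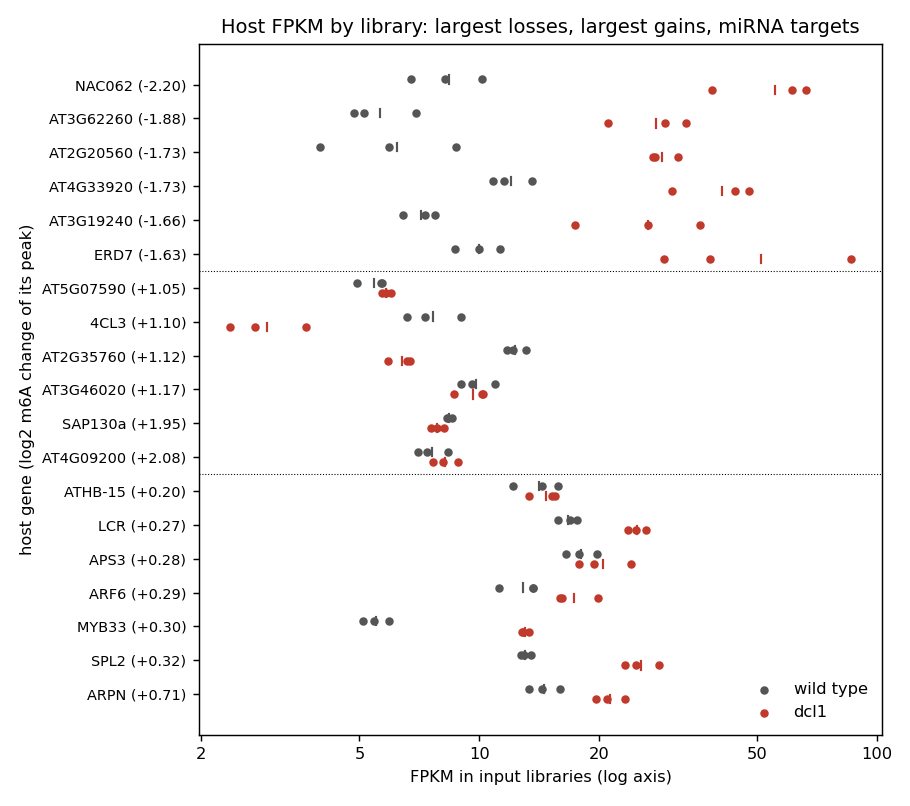
FPKM of single input libraries (x axis, log scale) for hosts of the 6 largest losses (top), the 6 largest gains with an FDR under 0.05 (middle) and the 7 microRNA targets (bottom); grey is wild type, red dcl1, short lines are means and the number beside each name is the log2 m6A change. In the top block all dcl1 points lie to the right of wild type, whereas in the middle block only 4CL3 and AT2G35760 shifted past the threshold, to the left.

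Peaks in the microRNA targets of this expression range were gained. Of 80 established targets on a list, 7 were hosts here, all 7 peaks were gained (0.20 to 0.72, median 0.29), and 5 hosts rose and 0 fell, with a median host log2 change of 0.52. The locus numbers of this list were written down after the peak table had been seen. Over all tested genes, 39 of 73 targets rose and 4 fell (median 0.36). All 5 risen targets thus had a gained peak, against 39 of the 221 peaks in other risen hosts; a list this small allows no test here.

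MYB33 (AT5G06100), a GAMYB-like factor targeted by miR159, stood at 5.43, 5.10 and 5.93 FPKM in wild type and 13.3, 12.8 and 12.9 FPKM in dcl1. The genotypes were far apart and tight (log2 change 1.11, SE 0.08, limma adjusted p = 1.6e-04), and the peak of MYB33 on chromosome 5, 1840340 to 1840697, gained 0.31. SPL2 (AT5G43270), a miR156 target that promotes the adult phase, stood at 12.95, 12.7 and 13.5 FPKM in wild type and 24.8, 28.2 and 23.3 FPKM in dcl1. It too had no overlap (log2 change 0.91, SE 0.08, limma adjusted p = 5.2e-04) and gained 0.32 at its peak. LCR (AT1G27340), the F-box target of miR394, stood at 17.6, 16.9 and 15.7 FPKM in wild type and 24.7, 26.2 and 23.7 FPKM in dcl1 (log2 0.54, limma adjusted p = 0.0022, peak 0.27 with an FDR of 0.062).

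ARPN (AT2G02850), the plantacyanin targeted by miR408, had the largest gain of the targets (0.72). It stood at 14.4, 13.4 and 16.0 FPKM in wild type and at 23.2, 21.0 and 19.7 FPKM in dcl1, without overlap (log2 0.52, SE 0.09, limma adjusted p = 0.0063). ARF6 (AT1G30330), an auxin response factor targeted by miR167, stood at 13.6, 11.2 and 13.7 FPKM in wild type and 15.9, 16.2 and 19.9 FPKM in dcl1, with a peak change of 0.29. Its groups did not overlap either, but the call (log2 0.40, limma adjusted p = 0.034) did not hold with wild-type replicate 1 (0.0655) or 2 (0.104) left out, or dcl1 replicate 2 (0.0544) or 3 (0.085), with no expression minimum (0.053) and after quantile normalization (0.0622). The class III HD-ZIP gene ATHB-15 (AT1G52150, miR166; 14.1 ± 1.84 and 14.7 ± 1.199 FPKM) and the ATP sulfurylase APS3 (AT4G14680, miR395; 18.1 ± 1.64 and 20.4 ± 3.20 FPKM, SD, n = 3 each) did not pass, and their peaks gained 0.20 and 0.28.

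Targets with hosts under 5 FPKM went the other way. All 3 of them with a differential 3' UTR peak over a single gene, AGO2, SPL10 and AT1G69170 (SPL6), rose and had lost peaks (-0.603, -0.224 and -0.696). The miR172 target RAP2.7 (also TOE1), at 27.5 FPKM in wild type, had a gained peak (0.448) and did not pass (limma adjusted p = 0.095). Among 17 genes of the m6A machinery and DCL1, 2 were hosts, both YTH-domain readers that did not pass in limma with all libraries and FPKM as deposited. ECT8 (AT1G79270) stood at 12.7 ± 2.03 in wild type and 9.76 ± 0.89 FPKM in dcl1 (SD, n = 3 each), and its peak gained 0.71. Its log2 change of -0.34 (limma adjusted p = 0.073) did pass without wild-type replicate 3 (-0.46, adjusted p = 0.0142) and after quantile normalization (adjusted p = 0.0477). ECT6 (AT3G17330) stood at 8.09 ± 0.79 and 8.64 ± 0.86 FPKM, and its peak changed by -0.32.

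The hosts with the largest expression changes followed the opposite pattern with 2 exceptions. The 6 largest rises were NAC062 (log2 2.57), AT3G55430, TIP, AT1G27100, AT3G62260 (2.11) and AT2G39420. AT3G55430, a family 17 glycosyl hydrolase, stood at 17.6, 14.7 and 20.8 FPKM in wild type and 63.5, 113.9 and 114.4 FPKM in dcl1, and its peak changed by -0.76. TIP (AT5G24590), a NAC factor that binds a viral coat protein, stood at 9.13, 9.03 and 11.4 FPKM in wild type and 42.3, 55.7 and 62.6 FPKM in dcl1, with a peak change of -1.44. In all 6, every dcl1 library lay above every wild-type one, which was a condition of this choice.

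AT1G27100, an actin cross-linking protein, went from 18.4 ± 5.98 to 83.6 ± 12.8 FPKM (SD, n = 3 each), its wild-type replicate 3 (25.3 FPKM) standing above replicates 1 and 2 (14.4 and 15.5), and its peak changed by -1.18. AT2G39420, an alpha/beta-hydrolase, stood at 7.81, 6.71 and 11.2 FPKM in wild type and 33.0, 43.7 and 42.5 FPKM in dcl1 (log2 2.11, SE 0.18, limma adjusted p = 3.6e-04). Its peak was gained (0.34, FDR 0.091). Among the 34 hosts that rose by at least 1 on the log2(FPKM + 1) scale, only AT2G39420 and MYB33 had a gained peak.

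The 6 largest falls were 4CL3, SIP1, AT1G21060, ARP9, HCAR and TBL37, and 5 of their 6 peaks were gained. SIP1 (AT5G40390), a raffinose synthase, stood at 9.36, 10.3 and 9.15 FPKM in wild type and 4.18, 4.86 and 3.24 FPKM in dcl1 (log2 -1.07, SE 0.13, limma adjusted p = 0.0012, peak 0.36). HCAR (AT1G04620), a reductase of the chlorophyll cycle, went from 8.79 ± 0.52 to 3.98 ± 0.34 FPKM (peak 0.38), and ARP9 (AT5G43500), an actin-related protein, from 12.2 ± 0.92 to 5.67 ± 0.39 FPKM (SD, n = 3 each; peak 0.20, FDR 0.072). AT1G21060, a protein with a DUF547 domain, changed by -0.99 (peak 0.66). TBL37 (AT2G34070), of a family of cell wall acetyltransferases, changed by -0.97 and was the exception with a lost peak (-0.54, FDR 0.058).

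By annotation, losses prevailed in signalling and defence genes and gains in genes of translation. Classes were made from words in the authors' gene descriptions and GO terms, may share genes, and left 417 peaks unclassed; their shares are descriptions. Among genes annotated with protein kinase terms 19 of 67 peaks were gained (28.4%), among defence genes 18 of 60 (30.0%), among phosphatases 16 of 47 (34.0%) and among transcription factors 23 of 65 (35.4%), beside 50.2% over all 1100. In these 4 classes hosts more often rose than fell, with 19 and 4 of 67, 20 and 4 of 60, 14 and 3 of 47, and 28 and 3 of 64. Over all genes of the same class and expression range, 16.8% rose and 7.94% fell for kinase terms, 27% and 8.62% for defence, 16.6% and 10.6% for phosphatases, and 33.8% and 8.46% for transcription factors.

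Of 29 peaks in genes of translation and the ribosome, 20 were gained (69.0%), and 0 of their 28 hosts rose while 2 fell in limma, at a threshold that 4.25% and 11.3% of such genes in the range passed upward and downward. The fallen hosts were HLL (AT1G17560), a mitochondrial ribosomal protein (11.7 ± 0.83 to 8.87 ± 0.74 FPKM, peak 0.69), and the eIF3 subunit gene AT1G66070 (16.4 ± 1.46 to 12.6 ± 0.86 FPKM, SD, n = 3 each, peak -0.21). HLL no longer passed in 3 of the 6 fits with a library left out, namely wild-type replicate 1 (adjusted p = 0.0508) and, of the mutant, replicates 1 (0.0606) and 3 (0.0623). AT1G66070 did not pass with wild-type replicate 2 omitted (0.0707), nor with mutant replicates 2 (0.05) or 3 (0.0673) omitted.

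The other 9 classes were described in the same way. Of 237 peaks in chloroplast genes 127 were gained (53.6%), with 36 of 236 hosts risen and 23 fallen, beside 13.3% and 12.8% of all chloroplast genes in the expression range. RNA binding and splicing had 51 of 98 gained (52.0%), with 12 of 97 hosts risen and 8 fallen, beside 9.81% and 11.2% in the range. Ubiquitin and proteasome had 40 of 77 gained (51.9%), with 15 of 76 hosts risen and 5 fallen, beside 17.7% and 5.98%. These 3 classes lay close to the 50.2% of all peaks. For Golgi and vesicle genes 60 of 131 peaks were gained (45.8%), with 17 hosts risen and 7 fallen, beside 12.1% and 10.8% in the range. Membrane transport had 20 of 47 gained (42.6%), with 11 hosts risen and 3 fallen, beside 16.8% and 11.7%. Cold, heat or drought response had 14 of 36 gained (38.9%), with 11 hosts risen and 3 fallen, beside 30.3% and 7.56%. Hormone classes were small, at 11 peaks each. For jasmonate or wounding 2 were gained (18.2%), the lowest share of the 14 classes, with 4 hosts risen and 0 fallen, beside 40% and 13.3% in the range. For abscisic acid 4 were gained, with 1 host risen and 2 fallen (26.4% and 10.4% in the range), and for auxin 5, with 4 risen and 2 fallen (24.1% and 18.4%).

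**Figure D5:**
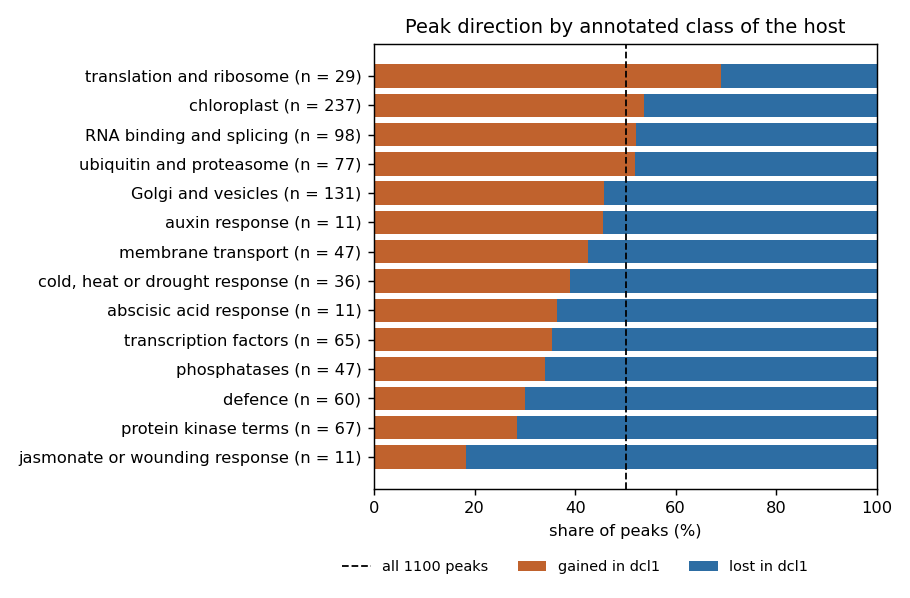
Share of peaks gained (orange) and lost (blue) in dcl1 (x axis, %) for each annotated class of host (y axis, with the number of peaks); the dashed line marks the 50.2% of all 1100 peaks. Jasmonate or wounding, protein kinase terms and defence lie lowest, and translation and ribosome highest at 69.0%.

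Further hosts with the smallest adjusted p-values of their class are named next, and these all moved against their peak. Of the hosts chosen in the same way and named above, MYB33, AT2G39420 and AT1G66070 moved with theirs. RBOHD (AT5G47910), the NADPH oxidase of the immune oxidative burst, stood at 13.5, 12.95 and 16.1 FPKM in wild type and 25.7, 40.3 and 50.4 FPKM in dcl1, and its peak changed by -0.83. SCL13 (AT4G17230), a GRAS-family regulator, went from 9.46 ± 1.71 to 40.8 ± 13.1 FPKM (peak -1.05). NUDT8 (AT5G47240), a nudix hydrolase, went from 5.28 ± 0.38 to 15.5 ± 3.99 FPKM (SD, n = 3 each; peak -0.48). In these 3 hosts the genotypes did not overlap.

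Both named RING/U-box genes of the ubiquitin class rose, AT5G66070 (log2 1.64, SE 0.12, peak -1.46) and AT4G26400 (log2 1.23, SE 0.13, peak -0.74). The D-type cyclin CYCD1;1 (AT1G70210), which fell under kinase terms by its annotation, went from 10.2 ± 0.32 to 18.3 ± 0.27 FPKM (peak -0.30, FDR 0.13), and the diacylglycerol kinase DGK7 (AT4G30340) from 12.7 ± 0.73 to 6.59 ± 0.10 FPKM (SD, n = 3 each; peak 0.46). Among transporters, the nucleotide sugar carrier UTR2 (AT4G23010) rose by 0.90 (peak -0.46) and UMAMIT46 (AT3G28070) by 0.74 (peak -0.32). AT1G76520, of the auxin efflux carrier family, rose by 0.97 (peak -0.20), and the haemoglobin GLB3 (AT4G32690) fell by 0.47 on the log2 scale (peak 0.56). The call of GLB3 did not hold with wild-type replicate 1 omitted (adjusted p = 0.065), nor with mutant replicates 2 (0.0556) or 3 (0.0572) omitted. Of the RNA class, APO1 (AT1G64810), needed for splicing in chloroplasts, rose by 0.67 (peak -0.35, FDR 0.093) and AT1G25682, with a DUF572 domain, by 0.75 (peak -0.56).

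Among the hosts, 4 carried 2 peaks each, and none of these hosts passed in limma without a replicate block. In AT5G26180, a putative methyltransferase, the peak nearer the end of the gene was gained (0.544, FDR 0.052; centre 194 bases from the end) and the one farther inside was lost (-0.377, FDR 7.8e-05; centre 888 bases from the end). In the other 3 both peaks went the same way: -0.284 and -0.350 in BEH4 (AT1G78700), a BES1-like brassinosteroid factor, -0.488 and -0.472 in AT2G30600, a BTB/POZ protein, and 0.158 and 0.233 in AT5G02740, a ribosomal S24e protein. The peaks of BEH4 and of AT2G30600 overlap each other, so they are not separate measurements. The second peak of BEH4 (-0.350), at 29601459 to 29602869, lies mostly beyond the annotated end of the gene at 29601682.

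The gene that the authors assigned to a peak was often not the gene under it. The assigned gene was the host for 504 peaks (45.8%) and another gene for 596. Of the latter, 539 had their assigned gene in the expression table, which in 533 cases (98.9%) lay downstream of the host, a median of 533 bases from the peak. For the 388 of these peaks whose assigned gene was tested, Spearman's rho of the peak change was -0.480 with the host's log2 change and -0.0155 with that of the assigned gene, and in 190 the host and the assigned gene had changes of opposite sign. The peak in AT3G62260, for example, is listed under AT3G62240, and that of CPK28 under AT5G66200. Another 38 hosts overlap a further gene outside the peak, and whether reads were counted by strand is not given in the sources used here.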

How the data were processed

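The submitters' processing notes name ChIPseeker, HOMER, edgeR, fastp, HISAT2 and StringTie and the TAIR10 build, but no versions or roles. The authors deposited FPKM of 24730 genes in the 6 input libraries. For each peak the authors deposited a log2 change, a p-value and a score that is the log10 of the FDR, per the file headers; its scaling is not stated, and no values of single immunoprecipitated libraries were used here. Peak coordinates are given as deposited. The peak of HCAR, on the minus strand, starts at 1282740, 1 base before the gene at 1282741. That of AT1G21060, on the plus strand, ends with the gene at 7374110. Printed starts and lengths may therefore be off by 1 base.

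Hosts were found by overlap of at least 1 base. Input libraries (3 per genotype) were tested on log2(FPKM + 1) by limma (version 3.58.1, R 4.3.3; linear model with a trended eBayes prior, two-sided), for genes averaging 1 FPKM or more, with Benjamini-Hochberg adjustment over 17925 genes. The pseudocount of 1 understates changes of low genes. The fit was also run on simulated data with the same spread for every gene and far fewer changed genes than were called here. Because that setting differs from these data, it does not measure the error of the calls. Symbols came from a RefSeq table (TAIR10.1, names only), matched for 1095 of 1096 hosts. Depth is unknown, so no counting intervals are given.

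The peaks, gene classes and lists were chosen with earlier results of these data known, and the loci of the microRNA target and m6A lists were completed after the peak table had been seen. Named hosts were those of the 6 largest gains and losses (FDR under 0.05), the 6 largest rises and falls, hosts with 2 peaks, and those nearest the FPKM limits. The rises and falls were taken from called hosts whose genotypes did not overlap. Also named were the up to 2 called hosts with the smallest adjusted p-value per class, and m6A genes and microRNA targets. Another 4 (CPK28, CBL1, ACA1, NIP5;1) were added after their values were seen, as were SAE1B, AT1G58848 and AT5G50550. Alternatives covered pseudocount, expression minimum, scaling, each library left out, a replicate block, the expression limits and the peak filter.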

Additional observations from a re-analysis of the deposited data

How the results depend on the processing

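After quantile normalization, 3716 genes of all tested and 205 hosts were lower in dcl1 (2291 and 98 with FPKM as deposited), and the median of all tested genes moved by -0.0874. Leaving out 1 library gave 1822 to 3589 genes higher and 1256 to 2073 lower over all tested genes, and 129 to 244 hosts higher and 50 to 86 lower. The lowest values came without wild-type replicate 1 or 2. Requiring the host to be the authors' assigned gene left 504 hosts, of which 113 rose and 41 fell, with 53.4% of peaks gained. The share of gained peaks was 29.0% among the 31 changed at least 2-fold, 54.5% where the host was not called and 61.9% with the host's log2 ratio added to the peak change (these last 2 settings were chosen after seeing the data). With that ratio subtracted, as planned, it was 47.4%. Pearson's r of peak and host change was -0.583. With a replicate block, 210 hosts rose and 87 fell, and AT2G30600 passed (adjusted p = 0.01, against 0.183 without it); same-numbered libraries deviated together at r = 0.0850, 0.0608 and 0.150, so the labels' numbers were not treated as pairs. Of 53 named hosts, 37 to 42 were called with 1 library left out (41 in the full fit), and no called change turned its direction. Motif shares were planned and not run, because no genome sequence was used here. Depth is unknown, so only the spread between replicates measures the precision of the FPKM values, and the peak values carry no error of their own here.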
